A study of Homo sapiens with 18 samples.

Results

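Broad promoters are the regions of the deposited promoter table whose names span 60 bases or more from start to end. They were chosen by that width and by a measured value, 100 or more tags summed over all libraries. Of 42133 promoters in the table, 6649 were that wide, and 4107 of these passed the tag minimum (2542 did not). The 4107 members were 9.75% of all promoters, 32.6% of the 12598 promoters with 100 or more tags, and held 17% of all promoter tags. The width of each region comes from its name, not from tags measured here, and the position of tags inside a region is not resolved. The tags were counted by CAGE (cap analysis of gene expression), which sequences the capped 5′ ends of RNA and so counts transcription starts per region. The 18 libraries came from total RNA of 2 human acute myeloid leukaemia lines labelled AML2 and AML3, called OCI-AML2 and OCI-AML3 in the file headers. Each line was given vehicle (DMSO), JQ1 or OTX015, which makes 6 groups of 3 libraries. The labels give no genotype, dose or time, and do not say whether the 3 libraries of a group came from separate cultures, so p-values measure the spread between these libraries, which may be technical. The comparisons were each compound against vehicle within a line, the difference of that effect between the lines, the lines with vehicle, and the compounds with each other.

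Transcription of a gene can start at 1 sharply defined base or be spread over a stretch of DNA. Spread starts are typical of CpG-rich promoters without a TATA box, which drive many constantly used genes such as those for metabolism and cell division, whereas sharp starts are typical of TATA-box promoters of regulated genes and of ribosomal protein genes, which start within a run of pyrimidines. JQ1 and OTX015 are thienotriazolodiazepines that block the acetyl-lysine pockets of BET proteins, which bind acetylated histones and help RNA polymerase II leave promoters. In acute myeloid leukaemia cells BET inhibitors are known for lowering MYC and its targets.

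The libraries held 313300 to 2180812 promoter tags, and library 3 was the shallowest of each group. In AML3 with a compound, library 3 also stood apart in composition, with the highest scaling factors (1.44 with JQ1 and 1.49 with OTX015, against 0.764 as the lowest) and the highest shares of tags in broad promoters, so counts are also given with libraries 1 and 2 alone. Of the myeloid marker genes, 5 of 6 were listed in the gene table with 14776 tags, whereas 0 of 4 T cell and 0 of 4 erythroid markers were listed, and there were 8 tags for B cell markers, 81 for megakaryocyte markers and 18 for stromal and epithelial markers. In bulk RNA, fewer cells of a type and less RNA per cell cannot be told apart. A gene was assigned to 3819 members (93.0%, 3637 genes); the other 288 are not named. Of the members with a gene, 1107 were the only listed promoter of their gene, 2799 held 80% or more of its tags, and 115 held under 20%; 172 genes had 2 or more members. Positions of members are hg19 positions as the names give them, for all but 6 members.

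Sequences are shown for 10 of the genes the results turn on, each being the 150 bases before the start of the gene in RefSeq (GRCh38.p14), from 5′ to 3′ on the gene's strand. Capitals mark a GC box (GGGCGG), a box of the letters CCAAT, an ETS site (CCGGAAGT), an NRF1 site, an E box (CACGTG), a CRE (TGACGTCA) or a YY1 site (AAGATGGCG) on either strand, where the letters of 1 motif may overlap those of another, and a TATA box (TATAAA) where it starts 40 to 20 bases before the start. RAN (chr12:130871916-130872065 on the plus strand), C1QBP (chr17:5439156-5439305 on the minus strand) and MCM7 (chr7:100101398-100101547 on the minus strand) are shown as members that fell with both compounds. BCL3 (chr19:44748558-44748707 on the plus strand), FUCA1 (chr1:23868291-23868440 on the minus strand) and PIK3R3 (chr1:46132630-46132779 on the minus strand) are shown as members that rose. CD300A (chr17:74466223-74466372 on the plus strand) and MS4A6A (chr11:60184667-60184816 on the minus strand) are shown as members that fell to near 0, and SMARCD2 (chr17:63842686-63842835 on the minus strand) and SLC25A11 (chr17:4940047-4940196 on the minus strand) as genes whose 2 broad promoters moved in opposite directions.
RAN: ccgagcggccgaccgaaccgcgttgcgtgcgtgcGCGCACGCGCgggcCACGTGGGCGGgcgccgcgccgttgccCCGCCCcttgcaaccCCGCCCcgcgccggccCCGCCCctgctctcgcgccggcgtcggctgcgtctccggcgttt
C1QBP: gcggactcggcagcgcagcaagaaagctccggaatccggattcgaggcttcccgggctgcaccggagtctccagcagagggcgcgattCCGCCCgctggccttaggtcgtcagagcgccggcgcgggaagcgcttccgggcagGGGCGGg
MCM7: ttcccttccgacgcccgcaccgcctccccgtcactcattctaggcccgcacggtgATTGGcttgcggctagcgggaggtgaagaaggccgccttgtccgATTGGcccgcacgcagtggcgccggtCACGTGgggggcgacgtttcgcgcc
BCL3: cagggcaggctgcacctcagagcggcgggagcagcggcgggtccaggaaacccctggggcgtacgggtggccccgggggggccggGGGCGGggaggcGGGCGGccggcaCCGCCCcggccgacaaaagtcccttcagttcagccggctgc
FUCA1: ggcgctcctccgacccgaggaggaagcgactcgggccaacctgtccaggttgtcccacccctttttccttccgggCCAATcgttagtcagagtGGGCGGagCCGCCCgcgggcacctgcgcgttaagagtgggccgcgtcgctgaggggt
PIK3R3: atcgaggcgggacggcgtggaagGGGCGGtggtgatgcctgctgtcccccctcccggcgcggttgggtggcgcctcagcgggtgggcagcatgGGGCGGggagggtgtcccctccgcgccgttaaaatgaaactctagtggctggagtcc
CD300A: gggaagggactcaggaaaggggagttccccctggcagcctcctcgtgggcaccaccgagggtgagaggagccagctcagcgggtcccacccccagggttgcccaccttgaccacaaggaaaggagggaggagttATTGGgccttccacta
MS4A6A: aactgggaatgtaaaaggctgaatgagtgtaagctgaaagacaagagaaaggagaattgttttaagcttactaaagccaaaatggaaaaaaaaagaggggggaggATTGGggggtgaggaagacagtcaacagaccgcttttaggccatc
SMARCD2: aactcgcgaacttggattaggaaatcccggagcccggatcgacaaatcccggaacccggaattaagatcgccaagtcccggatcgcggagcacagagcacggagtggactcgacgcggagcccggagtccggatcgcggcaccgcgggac
SLC25A11: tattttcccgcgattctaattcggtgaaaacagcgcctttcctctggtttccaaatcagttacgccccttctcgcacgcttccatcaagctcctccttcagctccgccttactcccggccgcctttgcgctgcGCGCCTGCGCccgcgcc

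The windows were taken by gene symbol and not from the hg19 positions of the members, so they show the gene's start and not the exact member. Over 150 bases, RAN held 33 CpG, C1QBP 20, MCM7 20, BCL3 16 and FUCA1 16, whereas MS4A6A held 1 and CD300A 3. None of the 10 windows held a TATA box by this search. Over all members that held 80% or more of the tags of a gene, 2306 of 2799 matched a RefSeq window (300 bases, from 250 before to 50 after the start). Of these windows, 89.7% had a ratio of observed to expected CpG of 0.6 or more, against 49.0% of all 27305 RefSeq windows and 88.7% of the windows of narrower promoters (under 60 bases, 100 or more tags). TATAAA in the set position was in 0.217% of member windows, in 3.89% of those of narrower promoters, in 20.8% of those of promoters under 20 bases and in 2.55% of all windows. For the other motifs the shares are given for member windows, those of narrower promoters and all RefSeq windows, in this order. A GC box was in 73.5%, 70.8% and 44.6%, an NRF1 site in 16.7%, 13.2% and 6.28%, an ETS site in 13.3%, 11.1% and 4.44%, and an E box in 12.3%, 9.58% and 7.43%. The shares of these 4 in members lay nearer to those of narrower promoters than to those of all windows. A CCAAT box was in 38.2%, 39.9% and 35.7%, a CRE in 4.47%, 3.78% and 1.98% and a YY1 site in 1.99%, 9.51% and 1.85% (and in 3.39% of those of promoters under 20 bases). These shares are descriptions, and no match says only that the letters are not in the window.

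The members ranged from 60 to 239 bases in width with a median of 77, and from 100 to 66241 tags with a median of 402. The widest belonged to LXN (239 bases), ZNFX1 (230 bases), DIP2A (224 bases), DAP (215 bases) and HIPK3 (209 bases). At the limit, RPL32, SERF2 and SNRPB are 60 bases wide with 66241, 19524 and 5423 tags, while MIF, COX7B and SKA2, at 59 bases with 22551, 4280 and 3071 tags, fell outside it. The members with the highest levels with vehicle included those of the ribosomal protein genes RPL32, RPL6 and RPL17, and of SERF2, RAN (the GTPase of nuclear transport), EIF5A (a translation factor), C1QBP (a mitochondrial matrix protein), COX6B1 (a subunit of cytochrome c oxidase) and CYCS (cytochrome c). Levels are given in tags per 1000000 promoter tags after scaling by trimmed mean of M values (CPM). C1QBP, at chr17:5342380-5342503 on the minus strand (hg19), is 123 bases wide and stood at 1292, 1066 and 1136 CPM with vehicle in AML2 and at 609, 666 and 729 CPM in AML3. With JQ1 it stood at 300, 309 and 246 CPM in AML2 and 233, 242 and 98.1 CPM in AML3, and with OTX015 at 205, 303 and 198 and 154, 159 and 68.4 CPM. All compound libraries lay below all vehicle libraries of the same line, with log2 changes with JQ1 of -2.03 ± 0.33 (SE, adjusted p = 2.6e-05) and -1.79 ± 0.33 (adjusted p = 7.4e-05). RAN, 64 bases wide, stood at 1918, 1451 and 1607 CPM with vehicle and 689, 625 and 587 CPM with JQ1 in AML2, and in AML3 at 777, 680.2 and 896 CPM with vehicle and 344, 349 and 123 CPM with JQ1. Its library 3 with JQ1 in AML3 was the lowest of the group, and no library with a compound reached a vehicle library of its line. RPL32, the most tagged member, did not pass the test with JQ1 in either line (-0.29 ± 0.50 in AML2 and -1.08 ± 0.51 in AML3 on the log2 scale, adjusted p = 0.7 and 0.075).

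Both compounds raised and lowered many of the members in both lines. Of the 3980 members tested (127 of 4107 had too few tags), 548 rose and 775 fell with JQ1 in AML2 at an adjusted p under 0.05 by the quasi-likelihood test of edgeR, against 17.1% higher and 18% lower among all 12867 promoters tested. In AML3, 890 rose and 924 fell with JQ1, with 26.5% and 23.8% among all. With OTX015, 645 rose and 872 fell in AML2 (20.5% and 20% among all) and 979 rose and 1010 fell in AML3 (28.4% and 25.8%). The shares of members that rose were 13.8% and 22.4% with JQ1 in AML2 and AML3, below the shares among all promoters, and those that fell were 19.5% and 23.2%, near them. With libraries 1 and 2 alone, 633 rose and 801 fell in AML2, and 810 rose and 992 fell in AML3.

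The balance of rises and falls depended on the scaling, since a scaling by library totals moved the median of all promoters up by 0.19 (JQ1, AML2), 0.37 (JQ1, AML3), 0.20 (OTX015, AML2) and 0.43 (OTX015, AML3) on the log2 scale. Of the called members, 41.4%, 49.1%, 42.5% and 49.2% were rises in these comparisons, against 54.2%, 69.1%, 56.6% and 70% under library totals. With library totals, 1264 members rose and 566 fell with JQ1 in AML3, and 1428 rose and 613 fell with OTX015.

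The change per member was smaller than that of narrower promoters. The median size of the log2 change with JQ1 was 0.57 in AML2 and 0.72 in AML3 for members, 0.70 and 0.90 for the 8043 narrower promoters tested, and 0.91 and 1.23 for the 1855 of these under 20 bases. A change of 2-fold or more that passed the test was found for 33.3% of members, 41.9% of narrower promoters and 53.7% of those under 20 bases with JQ1 in AML3, and 40.5% of all promoters tested. The order was the same with OTX015 (0.80, 1.01 and 1.42 in AML3), and with promoters at 0 tags in a group set to their bound. These are descriptions, with no test. Among members of 60 to 69, 70 to 79, 80 to 99 and 100 or more bases the median sizes with JQ1 in AML3 were 0.71, 0.77, 0.72 and 0.64, so width within the class showed no order.

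**Figure D1:**
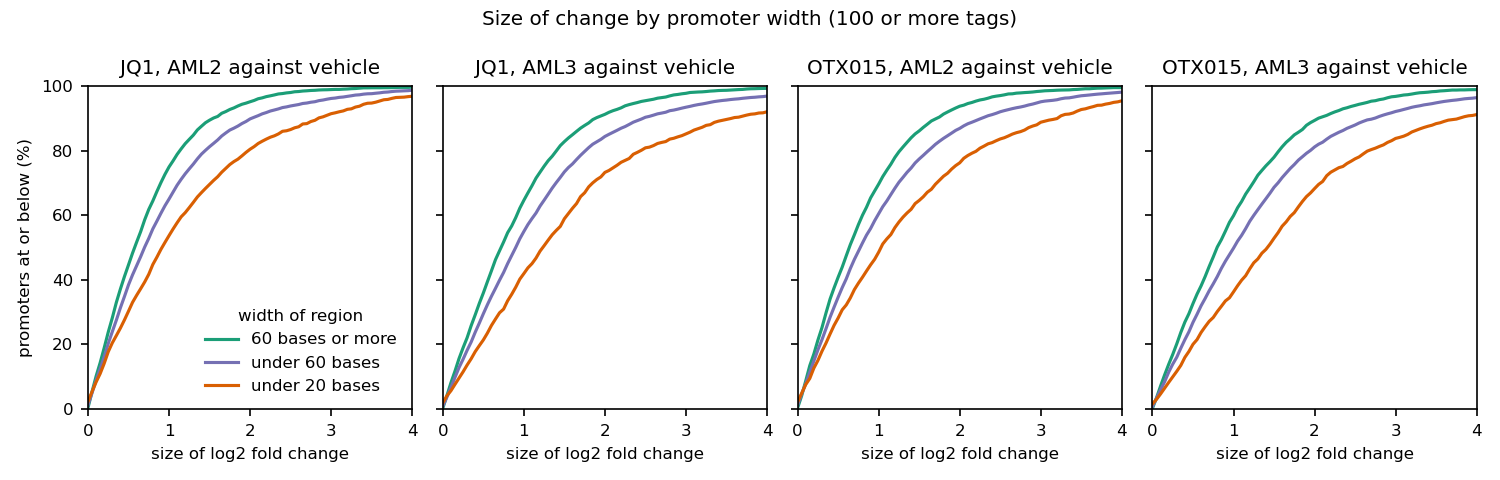
Cumulative share of promoters (y axis, %) at or below a given size of log2 fold change against vehicle (x axis), in 1 panel per compound and line, for promoters with 100 or more tags of 60 bases or more (green), under 60 bases (purple) and under 20 bases (orange). In all 4 panels the green line lies above the others, with a median size of 0.72 against 1.23 for promoters under 20 bases with JQ1 in AML3.

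Falls were more frequent among heavily tagged promoters, both members and narrower ones. Of 735 members with 1000 or more tags, 68 rose and 353 fell with JQ1 in AML3, against 287 and 126 of 1139 with under 250 tags. In AML2 the counts were 94 and 242, against 128 and 118. With 1000 or more tags 48.0% of members and 45.4% of narrower promoters fell with JQ1 in AML3, and 9.25% and 16.6% rose. With under 250 tags 11.1% and 16.9% fell. Within each of the 3 ranges of tags the median size of change of members lay below that of narrower promoters (for 1000 or more tags 0.73 against 0.91 with JQ1 in AML3). The tag total also entered the rule, and the depth of a promoter sets which changes pass the test.

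**Figure D2:**
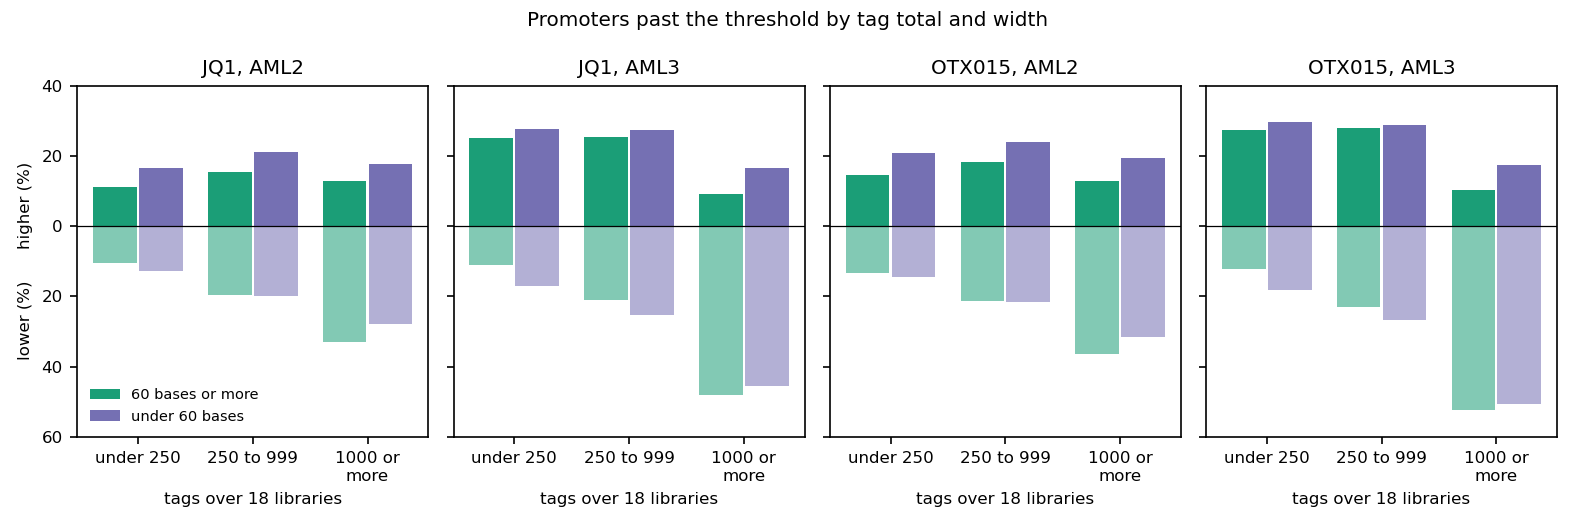
Share of promoters that were higher (bars above 0, dark) or lower (bars below 0, light) than with vehicle at an adjusted p under 0.05 (y axis, %), by tags summed over the 18 libraries (x axis), for promoters of 60 bases or more (green) and under 60 bases (purple), with 1 panel per compound and line. With JQ1 in AML3, 48.0% of broad promoters and 45.4% of narrower ones with 1000 or more tags were lower, and of the broad ones 9.25% were higher.

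In each of the gene lists for growth and division more members fell than rose, in both lines and with both compounds. The falls ranged from 8 of 17 (oxidative phosphorylation in AML2) to 24 of 25 (mitosis with OTX015 in AML3), against 18%, 23.8%, 20% and 25.8% of all promoters in the 4 comparisons. The lists were not matched for tags, and falls were more frequent among heavily tagged promoters. Of all members with 500 or more tags, 35.3% fell with JQ1 and 38.8% with OTX015 in AML3. Whether the tag totals of the lists account for their falls was not tested. The lists were chosen with earlier results of these data known, and their counts are set beside the median over all 3980 members, which lay between -0.06 and -0.03 on the log2 scale for the 4 comparisons. Members named from the lists, here and below, were picked by smallest adjusted p. A lack of overlap between their groups therefore adds nothing to the test. The origin-licensing and fork proteins of DNA replication had 30 members, of which 15, 24, 17 and 26 fell and none rose, in the order AML2 and AML3 with JQ1 and then AML2 and AML3 with OTX015 (median log2 changes of -0.69, -1.54, -0.81 and -1.77). MCM5, a subunit of the replicative helicase, stood at 121, 94.1 and 149.8 CPM with vehicle and 21.7, 29.8 and 21.4 CPM with JQ1 in AML3, and in AML2 at 118, 91.0 and 105 CPM and 60.7, 65.7 and 64.8 CPM. The groups did not overlap in either line, and MCM5 changed in AML3 by -2.29 ± 0.25 (adjusted p = 4.4e-08), and in AML2 by -0.71 ± 0.22 (adjusted p = 0.014). The AML2 change of MCM5 lost its call when any 1 was left out of vehicle library 1 of AML2 and JQ1 libraries 1 and 3 of AML2 (adjusted p = 0.0531 to 0.0634). MCM5 also missed the threshold with library totals and with no filter (adjusted p = 0.0767 to 0.131). CDC45, another part of the helicase, changed by -2.62 ± 0.28 in AML3 and -1.03 ± 0.25 in AML2 with JQ1. Of 25 mitosis members, 14, 23, 16 and 24 fell and none rose (medians -0.81, -1.58, -0.82 and -1.87). PLK1, a mitotic kinase, and CCNA2, a cyclin of S phase and G2, changed by -2.27 ± 0.28 and -2.27 ± 0.29 with JQ1 in AML3, and CENPM, a centromere protein, by -3.25 ± 0.34 with OTX015. Under library totals 7, 16, 6 and 22 mitosis members fell, and none rose.

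Of the members for making ribosomes, mitochondria and proteins, part also fell. In the same order of comparisons, 20, 18, 19 and 17 of 27 nucleolar members fell and 1 rose in each AML2 comparison (medians -1.09, -0.82, -1.21 and -0.81), and 10 and 6 fell with JQ1 and OTX015 in AML3 under library totals. Those that fell included WDR12, EBNA1BP2 and NHP2, which take part in building the large subunit or in pseudouridylation (log2 changes of -1.53 ± 0.25, -1.84 ± 0.25 and -1.73 ± 0.30 with JQ1 in AML2). Of 78 cytosolic ribosomal protein genes listed, 7 had a broad member, and of these 4, 6, 4 and 6 fell and none rose. Ribosomal protein genes have processed copies, and how such reads were counted is not given in the sources used here. Of 29 mitochondrial ribosome and import members, 20, 22, 21 and 22 fell (medians -0.95, -1.16, -1.04 and -1.22) and 1 rose in each, MRPS28, which changed by 3.22 ± 0.42 with JQ1 in AML3 and whose direction is the opposite of MRPL17 (-1.76 ± 0.27). For 17 oxidative phosphorylation members the counts were 8, 12, 8 and 15 (NDUFB10, -1.30 ± 0.28 in AML2 with JQ1), for 11 translation factor members 6, 6, 8 and 6 (EIF4EBP1, -2.18 ± 0.29 in AML3), for 14 tRNA synthetase members 7, 7, 8 and 8 (YARS, -1.70 ± 0.24 in AML2) and for 16 splicing members 9, 11, 10 and 11 (SNRPF, -2.23 ± 0.32 in AML3). No oxidative phosphorylation or translation factor member rose, 1 splicing member rose with OTX015 in AML2, and 1 tRNA synthetase member rose with OTX015 in AML3, where under library totals 4 tRNA synthetase members rose and 4 fell.

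The lists for chaperones, the proteasome and lipid synthesis also held more falls than rises. Of 15 chaperone members 11, 13, 13 and 13 fell and none rose (medians -1.08, -1.32, -1.20 and -1.48). FKBP4, an HSP90 co-chaperone, stood at 209, 200.3 and 229 CPM with vehicle and 47.4, 47.0 and 27.3 CPM with JQ1 in AML2, and at 172, 167 and 142 and 33.8, 58.6 and 35.7 CPM in AML3. No library overlapped between those groups, and FKBP4 changed by -2.35 ± 0.25 and -1.90 ± 0.25 (adjusted p = 5.4e-08 and 7.5e-07). Of 20 proteasome members 10, 15, 11 and 15 fell, with PSMB8, a subunit of the immunoproteasome, at -2.12 ± 0.33 in AML2 and PSMA7 at -2.35 ± 0.32 in AML3 with JQ1. Under library totals 9 proteasome members fell and 1 rose with JQ1 in AML3. The 16 members for cholesterol and fatty acid synthesis had 12, 9, 11 and 10 falls and no rise. With JQ1 the median was -1.53 in AML2 and -1.03 in AML3. The median over members of the difference between the lines was only -0.04, and 2 had a called difference, above 0. FDPS, which makes farnesyl diphosphate, changed by -2.10 ± 0.29 in AML2 and -3.01 ± 0.30 in AML3 (adjusted p = 2.4e-06 and 8.6e-09), and DHCR7, the last enzyme of cholesterol synthesis, by -2.30 ± 0.30 and -2.13 ± 0.33. FDFT1 and ACAT2, 2 other enzymes of the pathway, changed by -2.00 ± 0.27 and -1.65 ± 0.29 in AML2. Under library totals 6 lipid synthesis members fell and 1 rose with OTX015 in AML3. In all of the growth lists more members fell than rose under library totals in the 4 comparisons, except for the tRNA synthetases with OTX015 in AML3.

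**Figure D3:**
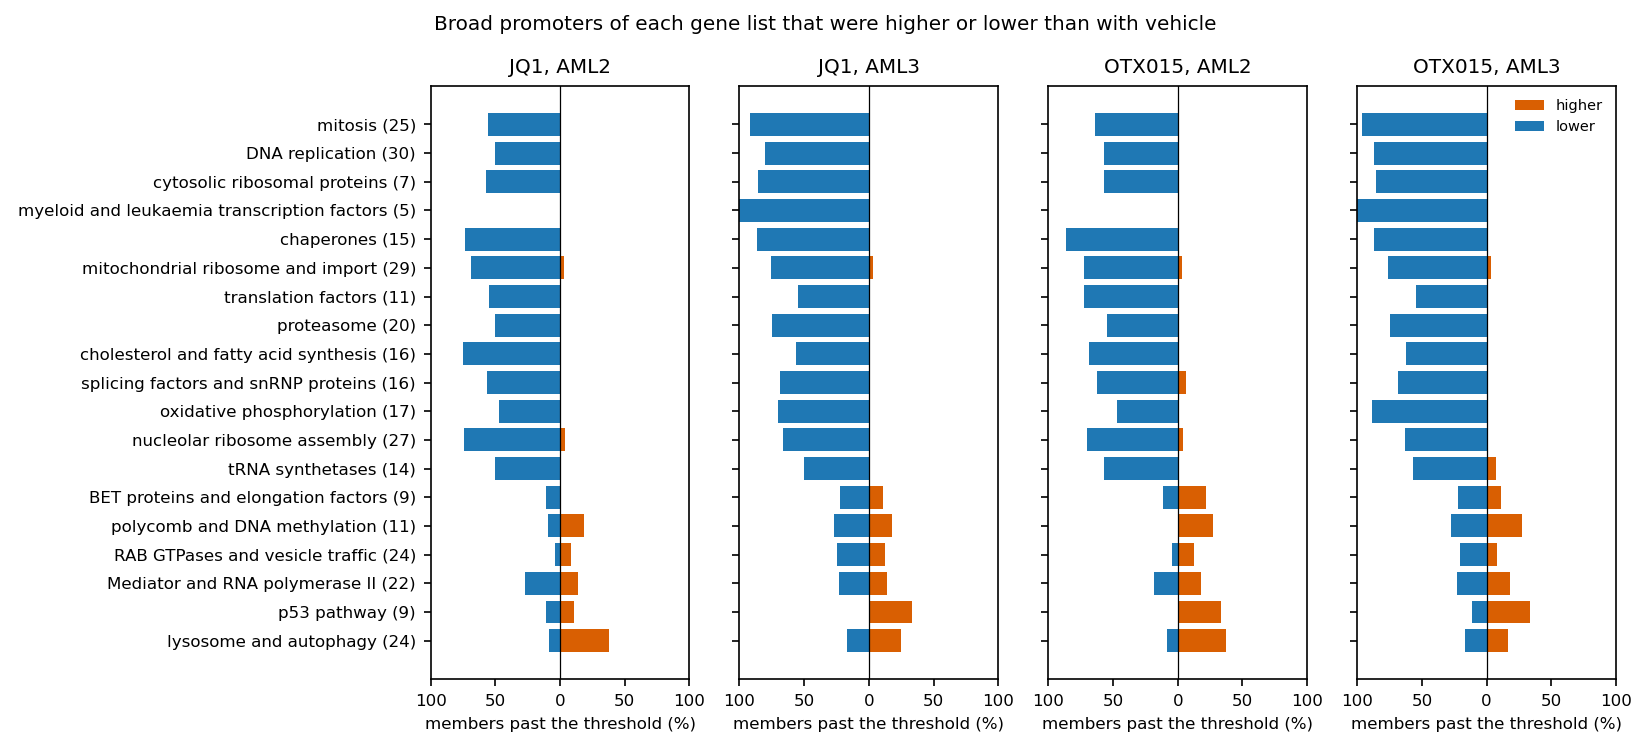
Share of the tested broad promoters of each gene list (y axis, number tested in brackets) that were higher (orange, to the right) or lower (blue, to the left) than with vehicle at an adjusted p under 0.05 (x axis, %), in 1 panel per compound and line. The lists for division, ribosomes and mitochondria lie almost wholly to the left, while lysosome members lie mostly to the right in AML2, with 9 higher and 2 lower of 24 with JQ1.

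Other lists held calls in both directions or in 1 line. Of 24 lysosome and autophagy members, 9, 6, 9 and 4 rose and 2, 4, 2 and 4 fell, in the same order of comparisons. Among all promoters 17.1%, 26.5%, 20.5% and 28.4% rose and 18%, 23.8%, 20% and 25.8% fell. The share of rises in this list lay above that of all promoters in AML2 and below it in AML3. The share of falls lay below that of all promoters in each comparison. Under library totals 11, 11, 11 and 9 rose. GABARAPL1, an autophagosome protein, stood at 4.18, 6.46 and 6.27 CPM with vehicle and 39.7, 38.4 and 30.7 CPM with JQ1 in AML2, and changed by 2.67 ± 0.32 there. In AML3 it stood at 6.91, 8.48 and 9.62 CPM with vehicle and 39.1, 49.4 and 44.6 CPM with JQ1 (2.44 ± 0.30), and the groups overlapped in neither line. ATP6V0A1, a subunit of the lysosomal proton pump, changed by 1.73 ± 0.28 and 2.79 ± 0.40, while ATG3, which attaches ubiquitin-like proteins to membranes, changed by -2.53 ± 0.33 and -1.84 ± 0.35. All 5 tested members of the myeloid and leukaemia transcription factors fell with each compound in AML3, and 0 passed the test in AML2. With library totals, 4 of them fell with each compound in AML3. The difference between the lines passed the test for only 2 of the 5 with each compound. IKZF1, a zinc-finger factor of blood cells, stood at 27.6, 31.4 and 22.0 CPM with vehicle and 8.68, 9.26 and 16.1 CPM with JQ1 in AML3, against 28.4, 31.8 and 33.8 CPM and 36.4, 26.5 and 42.7 CPM in AML2. It changed by -1.36 ± 0.33 in AML3 and 0.13 ± 0.27 in AML2 (adjusted p = 0.0011 and 0.74), a difference of -1.49 ± 0.42 between the lines (adjusted p = 0.032). That difference was no longer called when any 1 was left out of vehicle libraries 1 and 2 of AML2, JQ1 library 1 of AML2, vehicle libraries 1 and 2 of AML3 and JQ1 libraries 1 and 2 of AML3 (adjusted p = 0.0578 to 0.107). IKZF1 also missed the threshold with library totals and with no filter (adjusted p = 0.0538 to 0.122). CEBPB, a leucine-zipper factor of myeloid cells, changed by -2.30 ± 0.47 in AML3 and -0.05 ± 0.33 in AML2, also a difference that passed the test (-2.25 ± 0.59, adjusted p = 0.018). It did not pass without JQ1 library 2 of AML3 (adjusted p = 0.0721). The 3 members of the immediate early and NF-kB list were RELB, NFKB2 and NFKB1, subunits of NF-kB. All 3 rose with JQ1 in AML2 (2.74 ± 0.39, 1.44 ± 0.37 and 0.95 ± 0.28) and none passed the test in AML3 (0.01 ± 0.61, -1.24 ± 0.55 and -0.30 ± 0.33). The NFKB1 rise lost its call without vehicle library 1 of AML2 (adjusted p = 0.0624). The difference between the lines passed the test for RELB and NFKB2 with JQ1 (adjusted p = 0.018 and 0.013). For RELB it did not pass when any 1 was left out of vehicle library 2 of AML2, vehicle library 1 of AML3 and JQ1 library 1 of AML3 (adjusted p = 0.053 to 0.148). For NFKB2 it missed the threshold when any 1 was left out of vehicle library 1 of AML3 and JQ1 library 1 of AML3 (adjusted p = 0.0579 to 0.065).

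Single members moved far more. The members of the next 3 paragraphs were chosen for the size of their change among those whose groups do not overlap in a comparison, so that the lack of overlap there adds nothing to the test. BCL3, a nuclear IkB protein, is 63 bases wide (chr19:45251943-45252006, plus strand) and stood at 1.67, 4.31 and 2.51 CPM with vehicle, 110.3, 116 and 104 CPM with JQ1 and 126, 121 and 95.8 CPM with OTX015 in AML2. In AML3 it stood at 0.576, 1.70 and 5.50 CPM with vehicle, 13.0, 4.11 and 28.5 CPM with JQ1 and 8.56, 8.61 and 27.8 CPM with OTX015. The compound libraries lay above all vehicle libraries in AML2, whereas in AML3 a library with JQ1 lay below the highest with vehicle, and the log2 changes were 5.11 ± 0.44 (adjusted p = 1.7e-09) and 2.70 ± 0.66 (adjusted p = 0.0013) with JQ1. TSC22D1 (chr13:45010939-45011033, minus strand), a leucine-zipper gene, stood at 11.7, 5.38 and 2.51 CPM with vehicle and 115, 122 and 106 CPM with JQ1 in AML2 (4.06 ± 0.35), and at 0 in all 9 libraries of AML3. SPINK2, a serine protease inhibitor, had the same pattern, with 7.52, 3.23 and 2.51 CPM with vehicle and 64.0, 40.1 and 81.9 CPM with JQ1 in AML2 (3.73 ± 0.39) and 0 in AML3. The 0 values of AML3 allow up to 3 tags in a group. The vehicle libraries of AML2 held 26 tags of TSC22D1 and 17 of SPINK2. Both members thus passed the tag minimum only through the compound libraries of AML2, so the rule and the rise are not independent. BCL3 also drew most of its tags from the compound libraries of AML2, so the same holds for it.

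ABCA7, a lipid transporter, rose in both lines. It stood at 4.18, 4.85 and 1.25 CPM with vehicle and 33.1, 31.6 and 61.4 CPM with JQ1 in AML2, and in AML3 at 2.30, 3.39 and 2.75 CPM with vehicle and 52.9, 63.8 and 107 CPM with JQ1. Its log2 changes were 3.35 ± 0.44 and 4.65 ± 0.44 (adjusted p = 1.3e-06 and 5.2e-09). FUCA1, a lysosomal fucosidase (chr1:24194771-24194851, minus strand), stood at 22.6, 24.2 and 20.1 CPM with vehicle and 87.1, 86.2 and 54.6 CPM with JQ1 in AML2, and in AML3 at 1.15, 3.39 and 5.50 CPM with vehicle and 141, 112 and 53.5 CPM with JQ1. The vehicle level differed between the lines (-2.95 ± 0.54 for AML3 against AML2, adjusted p = 1.3e-04) and the log2 change with JQ1 was 1.77 ± 0.34 in AML2 and 5.17 ± 0.47 in AML3. PIK3R3, a regulatory subunit of PI3-kinase, rose from 0, 2.54 and 1.37 CPM to 74.6, 76.1 and 109 CPM with JQ1 in AML3 (6.10 ± 0.51) and from 3.34, 1.62 and 1.25 to 16.5, 6.83 and 20.5 CPM in AML2 (2.63 ± 0.60). CTTN, an actin-binding protein, rose in AML3 from 1.15, 3.39 and 1.37 to 39.9, 37.0 and 62.4 CPM (4.46 ± 0.44). ATP8B1, a membrane lipid flippase, had 0 tags in all libraries of AML2 and in the vehicle libraries of AML3, and 22.6, 19.5 and 55.3 CPM with JQ1 there. Against a floor of 3 tags over the group this was at least 34.4-fold higher. ZNF41, on the X chromosome, went from 0 in the 3 vehicle libraries of AML3 to 15.6, 26.7 and 26.8 CPM, at least 26.7-fold higher. In AML3, ATP8B1 held 76 tags with JQ1 and 74 with OTX015, and ZNF41 held 59 and 44. Both members passed the tag minimum only through these compound libraries, so the rule and the rise are not independent. CTTN passed it in the same way. ABCA7 and PIK3R3 drew most of their tags from compound libraries, so their rises are not independent of the rule either.

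The members that fell farthest included surface and cytoplasmic proteins of myeloid cells. CD300A, an inhibitory receptor (chr17:72462766-72462831, plus strand), stood at 65.2, 70 and 22.6 CPM with vehicle and 3.31, 3.42 and 3.41 CPM with JQ1 in AML2, and in AML3 at 46.1, 52.6 and 37.1 CPM with vehicle and 0.868, 1.03 and 0 CPM with JQ1. No compound library overlapped a vehicle library, and the log2 change in AML2 was -3.96 ± 0.44 (adjusted p = 9.4e-08), while the 2 tags left in AML3 give vehicle over JQ1 a ratio of 62.3 (95% counting interval 17 to 519). MS4A6A, a tetraspan membrane protein of monocytes, stood at 44.3, 43.6 and 20.1 CPM with vehicle and had 1 tag in the 3 libraries with JQ1 in AML2, vehicle over JQ1 a ratio of 104 (95% counting interval 18.3 to 4124), and 0 tags with JQ1 in AML3, at least 9.83-fold lower. MS4A6A passed the tag minimum only through the vehicle libraries, and CD300A drew most of its tags from them. The rule and these falls are thus not independent. The RefSeq windows of these 2 genes, printed above, held few CpG, but were not read at the positions of the members. MNDA, a nuclear protein of myeloid cells, fell in AML3 from 94.5, 106 and 97.6 to 6.07, 7.20 and 1.78 CPM (-4.14 ± 0.37) and stood in AML2 at 11.7, 12.9 and 21.3 CPM with vehicle and 4.41, 6.83 and 17.1 CPM with JQ1 (-0.78 ± 0.42, adjusted p = 0.15). AIF1, a calcium-binding protein of monocytes and macrophages whose member held 27.0% of its gene's tags, stood at 113, 104 and 169 CPM with vehicle and 2.60, 5.14 and 5.35 CPM with JQ1 in AML3 (-4.90 ± 0.40), and in AML2 at 145, 126 and 183 CPM and 51.8, 44.4 and 27.3 CPM (-1.83 ± 0.27). CDA, cytidine deaminase, had 0 tags with JQ1 in AML3, at least 13.5-fold lower, and did not pass the test in AML2 (-0.79 ± 0.39). CPNE7 (-3.80 ± 0.65 in AML3), RCHY1 (-4.89 ± 0.77 in AML2), TNFSF13B, the B cell survival factor BAFF (-4.11 ± 0.72 in AML2), PROCR (-2.25 ± 0.34 in AML2) and AK4 (-2.22 ± 0.44 in AML2) also fell, as did the 119-base PSMB10 member, which held 8.85% of its gene's tags (-5.42 ± 0.79). TNFSF13B held 85 and 14 tags with vehicle in AML2 and AML3, against 3 and 1 with JQ1, so its fall is not independent of the rule either. Where a group held 3 tags or fewer, these fitted changes depend on the prior count.

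**Figure D4:**
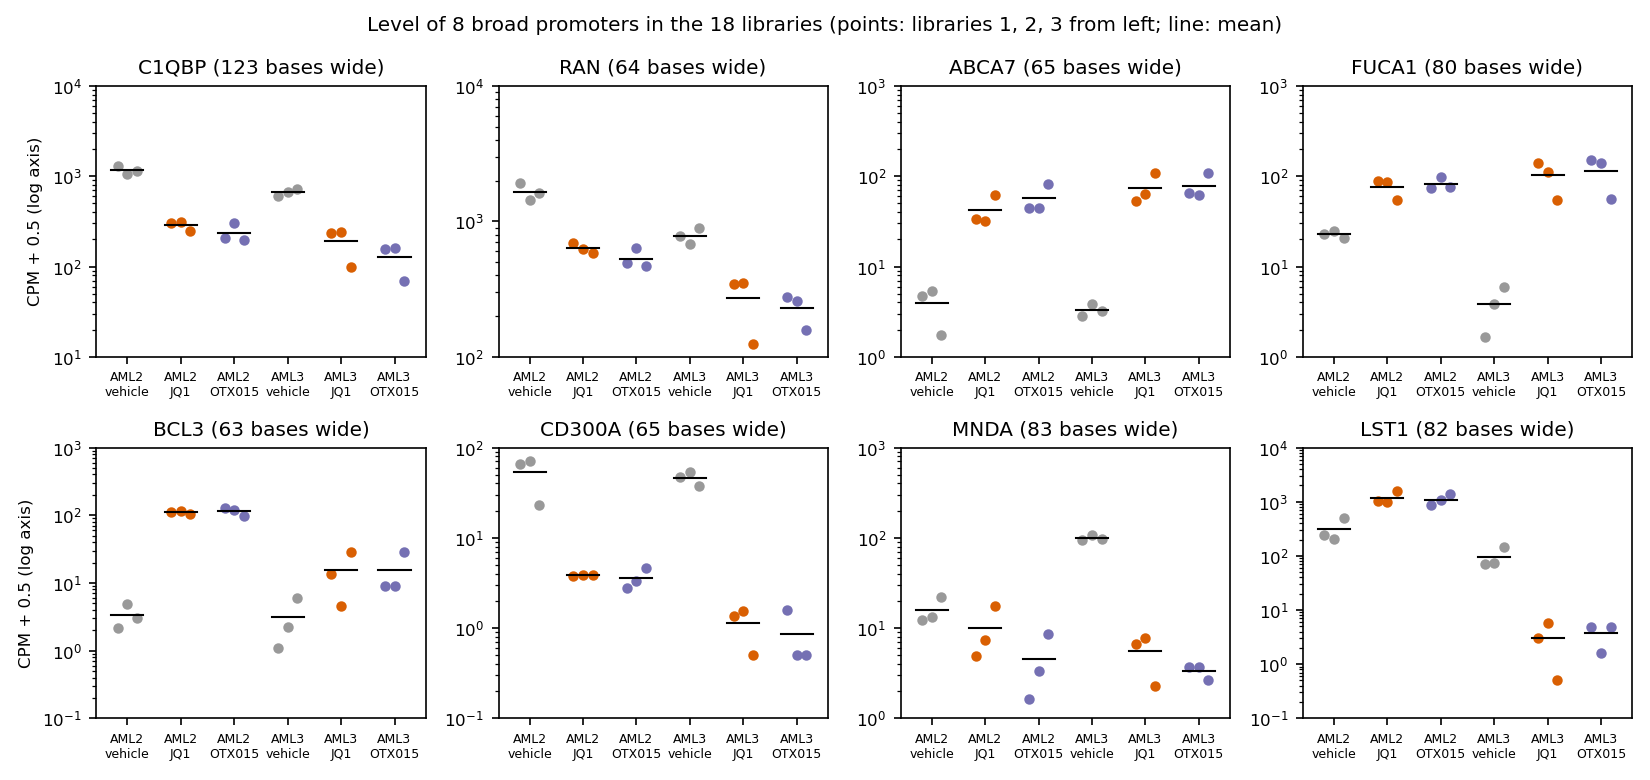
Level of 8 broad promoters in each of the 18 libraries (y axis, CPM plus 0.5 on a log axis), by line and treatment (x axis), with points for libraries 1, 2 and 3 of a group from left to right and a line for their mean. C1QBP and RAN were lower with both compounds in both lines, ABCA7 and FUCA1 were higher, and LST1 was higher with both compounds in AML2 (1.92 ± 0.37 with JQ1) and lower in AML3 (-4.94 ± 0.57).

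LST1, a transmembrane protein of leukocytes, moved in opposite directions in the 2 lines. In AML2 it stood at 241, 205 and 496 CPM with vehicle, 1027, 967 and 1546 CPM with JQ1 and 850.1, 1058 and 1358 CPM with OTX015. In AML3 it stood at 69.1, 73.8 and 144 CPM with vehicle, 2.60, 5.14 and 0 CPM with JQ1 and 4.28, 1.08 and 4.28 CPM with OTX015. The compound libraries were all above the vehicle libraries in AML2 and all below them in AML3, so that the effect of JQ1 differed by -6.86 ± 0.68 on the log2 scale (adjusted p = 1.8e-07). In all, 111 members had a higher JQ1 effect in AML3 and 118 a lower one (2.23% and 3.32% among all promoters tested), and 100 and 147 did so with OTX015 (2.15% and 4.16%). These counts moved with the libraries used, and were 151 and 255 for JQ1 with libraries 1 and 2 alone. Leaving out 1 library at a time gave 55 to 126 higher and 80 to 149 lower for JQ1, the lowest without JQ1 library 2 and JQ1 library 1 of AML2, and 54 to 134 higher and 98 to 187 lower for OTX015, the lowest without vehicle library 2 of AML2 and OTX015 library 1 of AML3. ALDH2, an aldehyde dehydrogenase, rose with OTX015 in AML2 (1.56 ± 0.49) and fell in AML3, where 2 tags were left with OTX015, vehicle over OTX015 a ratio of 8.32 (95% counting interval 2.08 to 72.3). Of the 548 members that rose with JQ1 in AML2, 319 (58.2%) also rose in AML3, which were 35.8% of the 890 that rose there, and 517 of the 775 that fell in AML2 (66.7%) also fell in AML3 (56.0% of 924). In the opposite direction, 20 members rose in AML2 and fell in AML3, and 10 fell in AML2 and rose in AML3. These overlaps were not counted over all promoters, so they are not given as a trait of broad promoters.

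With vehicle, 365 members were higher and 476 lower in AML3 than in AML2 (10.7% and 11.3% among all promoters tested). Of the called members 43.4% were higher, against 55.8% under library totals (412 higher and 326 lower), which moved the median of all promoters up by 0.16. With libraries 1 and 2 alone 520 members were higher and 592 lower. The members named next were chosen for the size of their difference among those whose vehicle libraries did not overlap. A member at or near 0 in 1 line met the tag minimum through its other libraries. The rule and such a difference are thus not independent. PITX1, a homeodomain factor (1084 tags, 28.7% of its gene's), stood at 76.9, 88.8 and 58.9 CPM in AML2 and at 0 in all 9 libraries of AML3, at least 95.8-fold lower with vehicle. BCL7A, a subunit of the SWI/SNF remodelling complex, stood at 78.5, 79.2 and 51.4 CPM and at 0 (at least 88.9-fold lower), as did ZNF521 (at least 45.4-fold) and DACH1 (at least 41.3-fold), 2 transcription regulators. SOCS2, an inhibitor of cytokine signalling, and ELOVL6, a fatty acid elongase, had 1 tag each with vehicle in AML3, AML2 over AML3 a ratio of 237 (95% counting interval 42.2 to 9413) for SOCS2 and a ratio of 197 (95% counting interval 34.9 to 7806) for ELOVL6. PLD3, a lysosomal nuclease, had a 75-base member at 0 in AML2 and at 128, 142 and 179 CPM in the vehicle libraries of AML3 (at least 184-fold higher). ADGRA3, an adhesion receptor (at least 31.0-fold), CRAT, a carnitine acyltransferase (at least 23.6-fold), YES1, a SRC family kinase (at least 14.8-fold), and LRP6, a WNT co-receptor (at least 12.7-fold), were also higher in AML3 and at 0 in AML2.

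No member passed the test of OTX015 against JQ1. In AML2 and AML3, 0 members passed (0.0% of all promoters) at an adjusted p under 0.05 with edgeR and 0 with DESeq2, and 105 and 81 of 3980 had an unadjusted p under 0.05. With the replicate number as a block, which pairs the libraries of these groups, 0 passed in either line and 136 and 109 had an unadjusted p under 0.05. The median size of the difference was 0.21 and 0.21 on the log2 scale. The labels do not give the doses, so the compounds cannot be matched. For C1QBP, OTX015 minus JQ1 was -0.58 in AML3 (95% interval -1.23 to 0.08), for ABCA7 0.06 (-0.51 to 0.64), and for CD300A -0.22 in AML2 (-1.70 to 1.25). With the block the intervals were -1.15 to 0.01, -0.35 to 0.51 and -1.62 to 1.14. The interval of CD300A spans differences of more than 2-fold in either direction.

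Some genes changed which of their promoters was used. The share of a gene's promoter tags at each promoter was tested with edgeR over 4401 promoters of 1926 genes, 874 of these promoters being members. This test was added after the counts were seen, and the genes named from it were chosen after their values were seen. The members named had 500 or more tags and shares that did not overlap between compound and vehicle in a comparison. The lack of overlap there adds nothing to the test. With JQ1, 22 members gained use and 24 lost it in AML2 (6.25% of all promoters called) and 36 gained and 38 lost in AML3 (9.45%), and with OTX015 26 gained and 40 lost in AML2 (8.36%) and 46 gained and 51 lost in AML3 (10.8%), near the background each time. Between the lines 16 were more and 15 less used in AML3 (2.5%). Leaving out 1 library at a time moved these counts, to as few as 12 gained without JQ1 library 1 of AML2, 12 lost without JQ1 library 2 of AML2, 23 gained and 24 lost without vehicle library 1 of AML3 with JQ1, and 6 gained and 6 lost between the lines without vehicle library 2 of AML2 and of AML3. With OTX015 the lowest counts were 20 lost without OTX015 library 2 of AML2, 29 gained without vehicle library 1 of AML3 and 33 lost without OTX015 library 2 of AML3. SMARCD2, a subunit of SWI/SNF complexes, has 2 broad promoters 257 bases apart. The 63-base member (chr17:61920280-61920343, minus strand, hg19) held 10.2%, 8.97% and 9.52% of the gene's tags with vehicle and 86.4%, 77.6% and 85.7% with JQ1 in AML2. In AML3 it held 33.6%, 26.7% and 33.3% with vehicle and 84.2%, 79.3% and 91.7% with JQ1. The shares did not overlap in either line, and its use changed by 2.89 in AML2 (adjusted p = 4.2e-08). Its own tags rose (2.07) while those of the 87-base member fell (-3.34).

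SLC25A11, the mitochondrial carrier of oxoglutarate and malate, has 2 broad promoters 110 bases apart that moved in opposite directions. The 72-base member (chr17:4843316-4843388, minus strand) held 23.4%, 27.0% and 19.5% of the gene's tags with vehicle and 64.2%, 60.7% and 67.6% with JQ1 in AML2, and in AML3 23.5%, 25.8% and 22.4% with vehicle and 66.7%, 61.2% and 86.7% with JQ1. In AML2 its tags rose (1.36) and those of the 65-base member fell (-1.07). In UBE2M, a conjugating enzyme for NEDD8, the 120-base member held 12.3%, 15.2% and 18.8% with vehicle and 47.0%, 42.6% and 38.1% with JQ1 in AML2, where its own tags did not pass the test (-0.45, adjusted p = 0.13) and the 65-base promoter 311 bases away fell (-2.51). In MCM7, the 82-base member held 94.4%, 96.8% and 97.1% with vehicle and 44.2%, 50% and 22.0% with JQ1 in AML3, as its own tags fell (-2.29) and a 33-base promoter 819 bases away rose (4.32). The member of NUP214, a nucleoporin, held 17.4%, 19.7% and 14.1% with vehicle and 79.7%, 82.8% and 100% with JQ1 in AML3, while its own change did not pass the test (adjusted p = 0.092). RALY, an RNA-binding protein, has a 63-base member that lost share in AML2, from 28.5%, 25.7% and 25.7% with vehicle to 10%, 6.51% and 5.95% with JQ1.

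**Figure D5:**
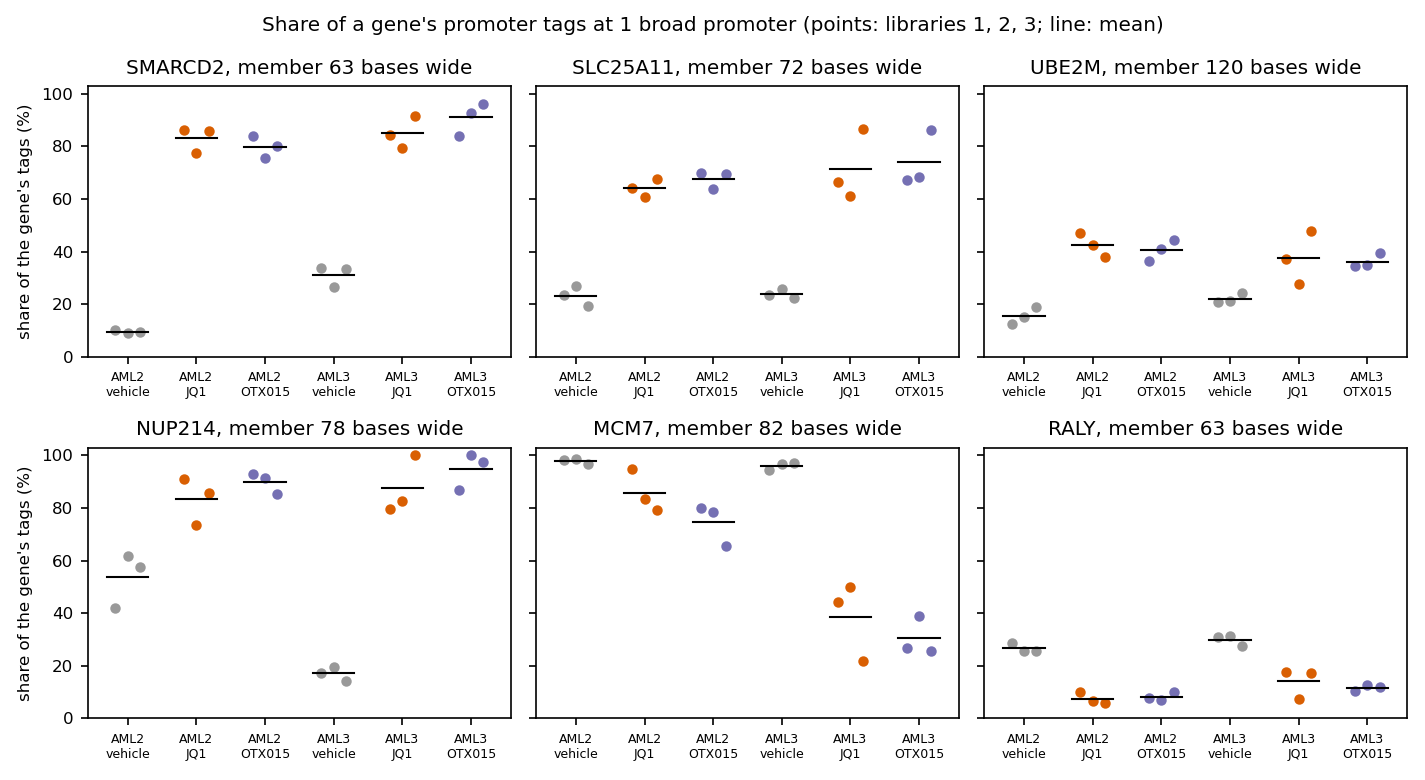
Share of a gene's promoter tags at 1 broad promoter (y axis, %) in each of the 18 libraries by line and treatment (x axis), for 6 genes, with points for libraries 1, 2 and 3 and a line for their mean. SMARCD2, SLC25A11, UBE2M and NUP214 members took a larger share with both compounds than with vehicle, and those of MCM7 and RALY a smaller one.

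The share of promoter tags held by all members together differed between groups by less than the test could call. The share ranged from 15.5% to 20.9% over the 18 libraries, with a mean of 17.3% ± 0.260 (SD, n = 3) with vehicle, 16.3% ± 0.643 with JQ1 and 16.4% ± 1.24 with OTX015 in AML2, and 17% ± 0.700, 18% ± 1.92 and 18.7% ± 1.98 in AML3. By a two-sided exact permutation test within line, JQ1 and OTX015 differed from vehicle by -0.05 and 0.37 percentage points (p = 0.99 and 0.71, adjusted over 3 comparisons 0.99 and 0.99). These values average the lines, which went in opposite directions. JQ1 differed by -1.06 in AML2 and 0.95 in AML3 (exact permutation p = 0.1 and 0.6). OTX015 differed by -0.93 and 1.66 (exact permutation p = 0.4 and 0.3), where 0.1 is the smallest possible p. Leaving out 1 library turned the sign for JQ1 (up to 0.25 without JQ1 library 2 of AML3) and for OTX015 (-0.20 without OTX015 library 3 of AML3). With all treatments and permuting within treatment, AML3 differed from AML2 by 1.20 percentage points (exact permutation p = 0.082, adjusted 0.246), and without vehicle library 3 of AML3 by 1.34 (exact permutation p = 0.032, not adjusted). The highest shares, 20.2% and 20.9%, were those of library 3 with JQ1 and with OTX015 in AML3, the 2 shallowest of all.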

How the data were processed

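The authors deposited raw counts of CAGE tags per promoter and per gene symbol in the 18 libraries; per the submitters' processing notes, reads were aligned with STAR to hg38, while nearly all promoter names carry hg19, and no source used here gives versions. The enhancer counts were not used here. The members and gene lists were chosen with earlier results of these data known. Gene symbols were assigned where the counts of a promoter, or of a run of neighbouring promoters on 1 strand, equalled those of a gene in all 18 libraries (50 or more tags). Counts were fitted with edgeR 4.0.16 (TMM scaling, filterByExpr, 1 mean per group over all 18 libraries, quasi-likelihood test), with p-values adjusted by Benjamini and Hochberg over all 12867 promoters tested. The SE of a log2 change was its size divided by the square root of F. The use of promoters within genes was tested with edgeR, a choice made after the counts were seen. Alternatives were DESeq2 1.42.0, other scalings, no filter, a block for the replicate number, single libraries left out, and other limits of width and tags. The deviations of same-numbered libraries from their group means correlated at 0.121 to 0.325 between JQ1 and OTX015 in AML2 and at 0.304 to 0.576 in AML3, all over 0.1, so the replicate numbers, which come from the labels, were taken to pair these groups. Whether tags carry molecular identifiers is not stated, so intervals and floors cover counting error only.

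Named members were the 8 largest rises and falls of each compound or line comparison with 10 or more CPM in the higher group and no overlap of libraries, 3 each way for the differences between lines and between compounds, the 10 highest with vehicle, the 5 widest, 3 on each side of the width limit, and up to 3 of each gene list and comparison by smallest adjusted p; the text names a subset. Promoter windows came from RefSeq, GRCh38.p14, matched by symbol. The scripts were tested on simulated data with Python 3.11.15 and R 4.3.3.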

Additional observations from a re-analysis of the deposited data

Results flagged for a closer look

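For some of the broad promoters named above the change with a compound differed between the lines by the edgeR test of the difference itself. Each value is the log2 change in AML3 minus that in AML2, with its SE, over 3 libraries per group, and no explanation was tested. A difference above 0 was found for 4 members. For FUCA1, the lysosomal fucosidase, the difference was 3.40 ± 0.62 with JQ1 (adjusted p = 8.8e-04) and 3.47 ± 0.62 with OTX015 (adjusted p = 6.0e-04). At PIK3R3, a PI3-kinase subunit, the difference was 3.48 ± 1.04 with JQ1 (adjusted p = 0.046). In ZNF41, a zinc-finger protein, the difference was 8.68 ± 1.80 with JQ1 (adjusted p = 0.0034) and 7.50 ± 1.72 with OTX015 (adjusted p = 0.0076). For RCHY1, a ubiquitin ligase, the difference was 3.47 ± 0.96 with JQ1 (adjusted p = 0.028). The vehicle libraries of AML3 held 0 tags of ZNF41, and those with JQ1 in AML2 1 tag of RCHY1, so these fitted sizes depend on the prior count. ZNF41 also passed the tag minimum only through the compound libraries of AML3. PIK3R3 drew most of its tags from those libraries as well. PIK3R3 with JQ1 was no longer called when any 1 was left out of vehicle libraries 1, 2 and 3 of AML2, JQ1 libraries 1 and 2 of AML2, vehicle libraries 1 and 3 of AML3, JQ1 libraries 1 and 3 of AML3 and OTX015 library 2 of AML3 (adjusted p = 0.0516 to 0.215). PIK3R3 also missed the threshold with library totals (adjusted p = 0.0567). ZNF41 with JQ1 lost its call without vehicle library 2 of AML2 (adjusted p = 0.111). ZNF41 with OTX015 missed the threshold without vehicle library 2 of AML2 (adjusted p = 0.152). RCHY1 with JQ1 was no longer called when any 1 was left out of vehicle library 1 of AML2, JQ1 libraries 2 and 3 of AML2, vehicle library 1 of AML3 and JQ1 libraries 1 and 2 of AML3 (adjusted p = 0.0502 to 0.163). RCHY1 also missed the threshold with DESeq2 (adjusted p = 0.0666).

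For 7 other members, of genes with differing roles, the difference was below 0. For LST1, the leukocyte membrane protein, the difference was -6.86 ± 0.68 with JQ1 (adjusted p = 1.8e-07) and -6.70 ± 0.69 with OTX015 (adjusted p = 4.7e-07). At CDA, cytidine deaminase, the difference was -6.10 ± 1.21 with JQ1 (adjusted p = 0.0022) and -3.53 ± 1.01 with OTX015 (adjusted p = 0.034). In AIF1, the calcium-binding protein, the difference was -3.08 ± 0.52 with JQ1 (adjusted p = 3.5e-04) and -3.45 ± 0.67 with OTX015 (adjusted p = 0.0013). For MNDA, the myeloid nuclear protein, the difference was -3.36 ± 0.61 with JQ1 (adjusted p = 8.6e-04) and -2.90 ± 0.86 with OTX015 (adjusted p = 0.04). At CTSH, a lysosomal protease, the difference was -2.03 ± 0.55 with JQ1 (adjusted p = 0.026) and -3.88 ± 0.74 with OTX015 (adjusted p = 0.0011). In ALDH2, an aldehyde dehydrogenase, the difference was -4.47 ± 0.98 with OTX015 (adjusted p = 0.0047). For DAP, death-associated protein, whose member is 215 bases wide, the difference was -1.35 ± 0.32 with JQ1 (adjusted p = 0.0087) and -1.62 ± 0.32 with OTX015 (adjusted p = 0.0017). CDA had 0 tags with JQ1 and 1 with OTX015 in AML3, and ALDH2 had 2 with OTX015 there, so these fitted sizes also depend on the prior count. DAP rose with JQ1 in AML2 (0.87 ± 0.24) and stood at -0.48 ± 0.21 in AML3, where it did not pass the test, while CTSH stood at -0.12 ± 0.29 in AML2 and fell in AML3 (-2.15 ± 0.46). Of all 24 lysosome and autophagy members 1 had a difference below 0 with JQ1 and 2 with OTX015. Among all promoters tested 3.32% and 4.16% did. CDA with OTX015 was no longer called when any 1 was left out of vehicle library 1 of AML2, OTX015 library 3 of AML2, vehicle libraries 1 and 3 of AML3 and OTX015 libraries 1 and 3 of AML3 (adjusted p = 0.0502 to 0.129). CDA also missed the threshold with library totals, with DESeq2 and with libraries 1 and 2 alone (adjusted p = 0.0706 to 0.114). MNDA with OTX015 lost its call when any 1 was left out of vehicle libraries 1 and 2 of AML2, OTX015 libraries 2 and 3 of AML2, vehicle libraries 1, 2 and 3 of AML3 and OTX015 libraries 1, 2 and 3 of AML3 (adjusted p = 0.0509 to 0.22). MNDA also missed the threshold with library totals and with libraries 1 and 2 alone (adjusted p = 0.0766 to 0.124). CTSH with JQ1 missed the threshold when any 1 was left out of vehicle library 2 of AML2, JQ1 libraries 1 and 2 of AML2, vehicle libraries 1 and 3 of AML3 and JQ1 libraries 1 and 3 of AML3 (adjusted p = 0.0505 to 0.109). DAP with JQ1 was no longer called with library totals (adjusted p = 0.0647).

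Of 30 replication members 6 had a difference below 0 with JQ1 and 10 with OTX015, and of 25 mitosis members 4 and 10. In either list 0 had one above 0. Among all promoters tested 3.32% with JQ1 and 4.16% with OTX015 had one below 0, and 2.23% and 2.15% one above 0. The replication and mitosis members named above are given here. For MCM5, a helicase subunit, the difference was -1.58 ± 0.34 with JQ1 (adjusted p = 0.0038) and -2.27 ± 0.37 with OTX015 (adjusted p = 2.2e-04). At MCM7, a helicase subunit, the difference was -1.40 ± 0.39 with OTX015 (adjusted p = 0.029). In CDC45, a helicase cofactor, the difference was -1.59 ± 0.39 with JQ1 (adjusted p = 0.011) and -2.01 ± 0.41 with OTX015 (adjusted p = 0.0025). For PLK1, a mitotic kinase, the difference was -1.39 ± 0.39 with OTX015 (adjusted p = 0.029). At CCNA2, cyclin A2, the difference was -1.34 ± 0.38 with JQ1 (adjusted p = 0.032) and -1.84 ± 0.45 with OTX015 (adjusted p = 0.011). In CENPM, a centromere protein, the difference was -2.43 ± 0.44 with OTX015 (adjusted p = 7.2e-04). MCM7 with OTX015 was no longer called when any 1 was left out of vehicle libraries 1 and 2 of AML2, OTX015 libraries 1 and 2 of AML2, vehicle libraries 1 and 2 of AML3 and OTX015 library 1 of AML3 (adjusted p = 0.0551 to 0.0924). MCM7 also missed the threshold with library totals (adjusted p = 0.0619). CDC45 with JQ1 lost its call without JQ1 library 2 of AML2 (adjusted p = 0.0794). PLK1 with OTX015 missed the threshold when any 1 was left out of vehicle library 1 of AML2, OTX015 libraries 1 and 2 of AML2, vehicle library 2 of AML3 and OTX015 libraries 1 and 2 of AML3 (adjusted p = 0.0519 to 0.155). PLK1 also missed the threshold with library totals and with no filter (adjusted p = 0.056 to 0.135). CCNA2 with JQ1 was no longer called when any 1 was left out of vehicle library 1 of AML2, JQ1 libraries 1 and 2 of AML2, vehicle libraries 2 and 3 of AML3 and JQ1 libraries 1 and 2 of AML3 (adjusted p = 0.0518 to 0.122). CCNA2 also missed the threshold with library totals and with no filter (adjusted p = 0.0608 to 0.132). CCNA2 with OTX015 lost its call without OTX015 library 1 of AML3 (adjusted p = 0.0724). CCNA2 also missed the threshold with library totals (adjusted p = 0.0603).

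Transcription factor members named above also had differences below 0. For CEBPB, a myeloid transcription factor, the difference was -2.25 ± 0.59 with JQ1 (adjusted p = 0.018) and -2.07 ± 0.59 with OTX015 (adjusted p = 0.032). At IKZF1, a blood cell transcription factor, the difference was -1.49 ± 0.42 with JQ1 (adjusted p = 0.032) and -1.86 ± 0.45 with OTX015 (adjusted p = 0.011). In RELB, an NF-kB subunit, the difference was -2.74 ± 0.71 with JQ1 (adjusted p = 0.018). For NFKB2, an NF-kB subunit, the difference was -2.68 ± 0.66 with JQ1 (adjusted p = 0.013) and -2.16 ± 0.62 with OTX015 (adjusted p = 0.034). CEBPB with JQ1 was no longer called without JQ1 library 2 of AML3 (adjusted p = 0.0721). CEBPB with OTX015 lost its call when any 1 was left out of vehicle library 2 of AML2, OTX015 library 1 of AML2, vehicle libraries 1 and 2 of AML3 and OTX015 library 2 of AML3 (adjusted p = 0.0693 to 0.13). CEBPB also missed the threshold with library totals (adjusted p = 0.0797). IKZF1 with JQ1 missed the threshold when any 1 was left out of vehicle libraries 1 and 2 of AML2, JQ1 library 1 of AML2, vehicle libraries 1 and 2 of AML3 and JQ1 libraries 1 and 2 of AML3 (adjusted p = 0.0578 to 0.107). IKZF1 also missed the threshold with library totals and with no filter (adjusted p = 0.0538 to 0.122). IKZF1 with OTX015 was no longer called without OTX015 library 1 of AML3 (adjusted p = 0.0673). IKZF1 also missed the threshold with library totals (adjusted p = 0.0637). RELB with JQ1 lost its call when any 1 was left out of vehicle library 2 of AML2, vehicle library 1 of AML3 and JQ1 library 1 of AML3 (adjusted p = 0.053 to 0.148). NFKB2 with JQ1 missed the threshold when any 1 was left out of vehicle library 1 of AML3 and JQ1 library 1 of AML3 (adjusted p = 0.0579 to 0.065). NFKB2 with OTX015 was no longer called when any 1 was left out of vehicle libraries 2 and 3 of AML2, OTX015 libraries 1 and 2 of AML2, vehicle libraries 1 and 2 of AML3 and OTX015 libraries 1 and 2 of AML3 (adjusted p = 0.0576 to 0.138). NFKB2 also missed the threshold with library totals and with DESeq2 (adjusted p = 0.0645 to 0.076).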

How the results depend on the processing

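The shares of members that rose or fell with a compound or between the lines were recomputed with alternatives, some chosen after seeing the data. They stayed within 1.5 times of the main shares with DESeq2, its size factors and no filter on low counts. The same held for a width of 50 or 80 bases, libraries 1 and 2 alone, and each library left out. Scaling by library totals lowered the share of members that fell in AML3 to 14.2% with JQ1 and 15.4% with OTX015, and the share with a lower effect in AML3 to 1.93% and 1.88%. A minimum of 500 tags, which leaves fewer members, gave 35.3% and 38.8% that fell in AML3, and 5.59% with a lower OTX015 effect there. Without a filter 1.63% and 1.41% had a higher JQ1 or OTX015 effect in AML3. Libraries 1 and 2 alone gave 6.30% with a lower JQ1 effect, 4.05% with a higher and 7.29% with a lower OTX015 effect. The cause was not tested. Leaving out 1 library gave 1.36 to 3.12% higher and 1.97 to 3.69% lower JQ1 effects in AML3, and 1.34 to 3.31% higher and 2.41 to 4.62% lower OTX015 effects.

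The share of tags in members depended on the tag minimum and the libraries. For JQ1 against vehicle it differed by -1.09 percentage points with 500 or more tags (exact permutation p = 0.010) and by 0.196 with the tags of promoters with 100 or more tags as the total (p = 0.91, exact permutation). With libraries 1 and 2 alone the JQ1 difference was -0.962 (exact permutation p = 0.056). For OTX015 it was -0.953 with 500 or more tags and -0.725 with libraries 1 and 2 alone (exact permutation p = 0.025 and 0.222). Between the lines it was 0.677 for a width of 80 bases or more, -0.0529 with 500 or more tags, 1.59 with the other total and 0.961 with libraries 1 and 2 alone (exact permutation p = 0.039, 0.828, 0.049 and 0.028). Leaving out 1 library gave -0.604 to 0.247 for JQ1, -0.199 to 0.704 for OTX015 and 0.826 to 1.44 between the lines.

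For promoter use, leaving out 1 library gave 6 to 17 members gained and 6 to 16 lost between the lines, 12 to 24 and 12 to 27 with JQ1 in AML2, 23 to 39 and 24 to 42 with JQ1 in AML3, 20 to 48 lost with OTX015 in AML2, and 29 to 48 gained and 33 to 58 lost with OTX015 in AML3.

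In the comparisons with vehicle and between the lines with vehicle, same-numbered libraries share only a number, since not every pair correlated at over 0.1 (18 of 45 pairs over all groups did, and 11 of 18 libraries correlated best with their own number, a hint from the data). With the replicate block, 4.47% of members had a lower JQ1 effect in AML3 and 3.92% a higher OTX015 effect. No other share, and no count of promoter use, moved by over 1.5 times. Between JQ1 and OTX015, where the numbers pair the libraries, the block changed no call. Of 371 changes of single members recomputed, none reversed and 34 (26 genes) lost the call under 1 or more alternatives. Of 41 differences between the lines, none reversed and 24 (19 genes) lost it. Among the changes with values given above, these were MCM5 with JQ1 in AML2 and NFKB1 in AML2, and CBX7 in AML3, which lost its call when any 1 was left out of vehicle libraries 1 and 3 of AML3 and JQ1 library 1 of AML3 (adjusted p = 0.0635 to 0.103). CBX7 also missed the threshold with DESeq2 and with no filter (adjusted p = 0.0615 to 0.0618). Depth limits the members with few tags: 127 could not be tested, and 62 had 0 tags in a group.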

Other observations

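Members are described here by the letters of their RefSeq window, with no test. Of the members with a window, 231 tested were below an observed to expected CpG ratio of 0.6 and 2034 at or above it, with median sizes of change of 0.64 and 0.56 with JQ1 in AML2 and 0.78 and 0.67 in AML3. With OTX015 in AML3 49.8% of the former and 51.0% of the latter passed the test. Narrower promoters had larger medians in both classes (0.92 and 0.78 in AML3). Members whose window held a GC box had a median log2 change of -0.02 with JQ1 in AML3, and those without it -0.22. For the E box the medians with JQ1 were -0.22 with and -0.08 without it in AML2, and -0.13 and -0.07 in AML3. For the YY1 site, in the windows of 46 members, they were -0.25 and -0.10 in AML2, and -0.01 and -0.08 in AML3. The 5 members with TATAAA, named after their values were seen, were KRT10, TNNT1, ANKRD23, C21orf58 and ABCC5, of which TNNT1, a troponin, fell (-3.81) and ABCC5, a membrane transporter, rose (2.92) with JQ1 in AML3.

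The remaining lists held calls in both directions. Among all promoters tested, 17.1%, 26.5%, 20.5% and 28.4% rose and 18%, 23.8%, 20% and 25.8% fell, in the order of comparisons given next. No list was tested against these shares. With JQ1 in AML2 and AML3 and then OTX015 in AML2 and AML3, 3, 3, 4 and 4 of 22 Mediator and RNA polymerase II members rose and 6, 5, 4 and 5 fell, with GTF2A1 at 2.71 ± 0.40, CDK19 at 1.68 ± 0.36 and POLR2I at -1.40 ± 0.31 with JQ1 in AML3. Of 9 BET and elongation members 0, 1, 2 and 1 rose and 1, 2, 1 and 2 fell, with CDC73 at 1.13 ± 0.23 in AML3. Of 11 polycomb and DNA methylation members 2, 2, 3 and 3 rose and 1, 3, 0 and 3 fell, with DNMT1 at -1.01 ± 0.22 and CBX7 at 1.53 ± 0.55. Of 24 RAB and vesicle members 2, 3, 3 and 2 rose and 1, 6, 1 and 5 fell, and of 9 p53 pathway members 1, 3, 3 and 3 rose and 1, 0, 0 and 1 fell, with RRM2B, a ribonucleotide reductase subunit, at 2.23 ± 0.46.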
